A study of Sus scrofa with 56 samples.

Results

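Peripheral blood mononuclear cells (PBMC) of lactating sows were compared between enriched and conventional housing on day 11 of lactation (L11). Libraries were taken by their housing label at L11, and the second-replicate library was left out for the 2 sows that had an L11 library in both experimental replicates. This gave 26 of the 56 libraries of the series, each from its own sow, with 13 enriched and 13 conventional animals. All were multiparous Sus scrofa sows, and the labels give no agent, transgene, breed or description of either housing system. High parity (HP) means the 4th gestation or later, and low parity (LP) means gestation 2 or 3. The enriched group held 7 HP and 6 LP sows, of which 6 were labelled dominant, 5 intermediate and 2 subordinate. The conventional group held 5 HP and 8 LP sows, of which 3 were dominant, 4 intermediate and 6 subordinate. Social rank therefore differed between the housing groups, and its part in the results was not tested beyond the fits that add or restrict rank. Each group had 7 sows in experimental replicate 1 (R1) and 6 in experimental replicate 2 (R2). Within R2 most conventional and few enriched sows were labelled subordinate, and within R1 few sows of either group were. The labels do not say whether the replicates differed in season, herd or handling.

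PBMC are the lymphocytes and monocytes of blood, with few granulocytes, red cells or platelets remaining after isolation. They carry receptors for glucocorticoids and catecholamines, and stress hormones are known to redistribute blood leukocytes and to induce feedback genes such as FKBP5 and PER1. Immediate early genes such as FOS and EGR1 are transcribed within minutes of stimulation of such cells. Around farrowing and in lactation, pig leukocytes are also exposed to large shifts in prolactin, cortisol and energy balance.

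Library totals ran from 18096879 to 25302990 estimated counts, with a median of 21649103 in enriched and 21935860 in conventional sows. A level of 1 CPM, a gene's count scaled to the size of its library, thus rested on 18.1 to 25.3 counts. The levels printed are also TMM-scaled, so the counts behind 1 CPM of them depart from these values. Markers of T cells summed to 2849 to 3840 CPM in enriched and 2464 to 3640 CPM in conventional libraries over 13 genes. B cell markers summed to 616 to 1699 CPM and 778 to 1670 CPM over 11 genes. Lymphocyte transcripts were thus present in every library, which does not test the purity of the PBMC. Experimental replicate dominated the variation: replicate accounted for 88.3% and housing for 0.1% of the first principal component, which carried 38.8% of the variance, and 5180 of 12250 genes (42.3%) differed between R2 and R1 (edgeR, adjusted p under 0.05). Several libraries stood apart. In that of a conventional HP dominant sow of R2 the complement gene C1QA, a marker of tissue macrophages, was at 467 CPM, against at most 5.93 CPM in every other library, and monocyte and granulocyte markers summed to 12639 and 2752 CPM, the highest of all. Erythroid markers summed to 34738 CPM in a conventional LP subordinate sow of R1 and to 17121 CPM in an enriched LP intermediate sow of R2, against at most 7906 CPM in the other libraries. In the first of these the 10 most abundant genes took 17.7% of counts, against at most 11.7% in the other L11 libraries. In bulk RNA of this kind, fewer cells of a type and less RNA per cell cannot be told apart.

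No gene passed the test for housing across all 26 sows. With parity and replicate as covariates, 0 of 12250 genes (0%) differed between enriched and conventional sows (edgeR quasi-likelihood test, Benjamini-Hochberg threshold 0.05), and the smallest adjusted p was 0.322. At an unadjusted p under 0.05 there were 933 genes (7.62%), 435 with a higher level in enriched sows (3.55%) and 498 with a lower one (4.07%). DESeq2 called 5 genes on the same counts and limma voom called 0. The estimates were narrow: the median standard error (SE) of a log2 fold change was 0.107 and the median 95% confidence interval reached 0.221 to either side. The interval lay wholly within a 2-fold change for 11680 genes (95.3%) and within a 1.5-fold change for 9982 genes (81.5%). These intervals bound the average over R1 and R2, and do not bound the difference within either replicate. Only 44 genes had an estimate beyond 2-fold, and 22 of these averaged 1 or more in log2 CPM. The direction was close to even, with 5814 genes (47.5%) above 0 and a median log2 fold change of -0.01 over all genes.

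**Figure D1:**
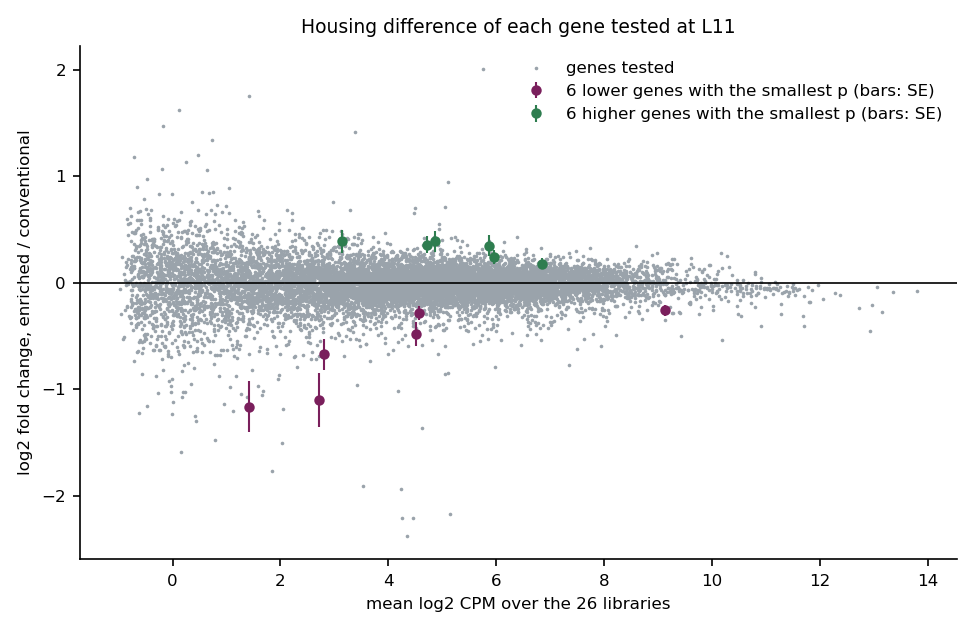
Log2 fold change of enriched over conventional sows (vertical axis) against the mean log2 CPM over the 26 libraries (horizontal axis), with a grey point for each of the 12250 genes tested and the 12 genes of smallest p marked with their SE. Most points lie within a 2-fold change, and the estimates with the greatest spread belong to genes of low abundance.

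The genes with the smallest p among those lower in enriched housing were led by OTUB2, CYSLTR2 and MCL1, none of which passed the edgeR threshold. OTUB2 encodes a deubiquitinating enzyme (chromosome 7, 115304809 to 115326055, as are the gene spans that follow on Sscrofa11.1). Its level ran from 0.904 to 2.43 CPM in enriched sows with a median of 1.45 CPM, against 0.963 to 11.3 CPM in conventional sows with a median of 2.88 CPM. All 13 enriched sows lay below the conventional mean of 3.60 ± 2.69 CPM (SD, n = 13), although the ranges overlapped. The log2 fold change was -1.16 (SE 0.24, edgeR adjusted p = 0.322). It was -0.91 without the library of highest C1QA, which held the conventional maximum of OTUB2.

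CYSLTR2 encodes a receptor for cysteinyl leukotrienes (chromosome 11, 18988665 to 19011015). Enriched sows held 3.12 to 8.03 CPM of it with a median of 5.67 CPM, and conventional sows held 6.01 to 11.6 CPM with a median of 7.79 CPM. Again all 13 enriched sows were below the conventional mean, 8.53 ± 1.87 CPM (SD, n = 13), and the ranges overlapped between 6.01 and 8.03 CPM. Its log2 fold change was -0.67 (SE 0.14, edgeR adjusted p = 0.322).

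MCL1, an anti-apoptotic member of the BCL2 family that lymphocytes need for survival, was far more abundant and differed by less (chromosome 4, 98562092 to 98567014). The 13 enriched sows ran from 419 to 623 CPM with a median of 501 CPM, against 506 to 749 CPM with a median of 578 CPM in the 13 conventional sows. Of the enriched sows, 12 lay below the conventional mean of 605 ± 75.0 CPM (SD, n = 13). The log2 fold change was -0.26 (SE 0.06, edgeR adjusted p = 0.322), and it was -0.35 within R2 and -0.20 within R1.

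CDKN2AIP, which binds the tumour suppressor CDKN2A and modulates p53, had a median of 19.2 CPM in enriched and 22.5 CPM in conventional sows (log2 fold change -0.28, SE 0.06). CALML4, a calmodulin-like protein known from the intestinal brush border, had a median of 3.39 CPM in enriched and 6.53 CPM in conventional sows (log2 fold change -1.10, SE 0.26, and -0.77 without the library of highest C1QA, whose 37.0 CPM was the maximum). The histone gene H2BC5 had medians of 18.6 CPM and 24.3 CPM (log2 fold change -0.48, SE 0.11, and -0.37 without that library). These 3 had edgeR adjusted p between 0.322 and 0.436. As a histone gene H2BC5 has near-identical copies, and its count is uncertain to the extent that reads were shared. The 5 genes that DESeq2 called were OTUB2, CYSLTR2, MCL1, CDKN2AIP and CALML4 (DESeq2 adjusted p from 0.0148 to 0.0336), in the same direction as in edgeR.

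Among genes higher in enriched sows, the differences were smaller. ACOX3, a peroxisomal oxidase of branched-chain fatty acids (chromosome 8, 2716913 to 2756221), ran from 21.9 to 41.2 CPM in enriched sows with a median of 26.7 CPM. In conventional sows it ran from 17.5 to 27.9 CPM with a median of 23.0 CPM. The ranges overlapped, but 12 of 13 enriched sows were above the conventional mean (log2 fold change 0.36, SE 0.08, edgeR adjusted p = 0.436). TAF6L, a subunit of the histone acetyltransferase complex SAGA, averaged 32.4 ± 7.52 CPM and 25.6 ± 5.04 CPM (SD, n = 13 each; log2 fold change 0.39, SE 0.10). ATXN7L2, related to the SAGA subunit ataxin-7, averaged 64.8 ± 8.86 CPM and 52.1 ± 11.0 CPM (log2 fold change 0.35, SE 0.10). The U1 splicing factor LUC7L2 averaged 121 ± 8.77 CPM in enriched and 107 ± 8.29 CPM in conventional sows (log2 fold change 0.18, SE 0.05). RABEP2, an effector of the early endosome, had a log2 fold change of 0.24 (SE 0.07), and ENOSF1, a mitochondrial dehydratase, had 0.39 (SE 0.11). The adjusted p of TAF6L was 0.493 and that of the other 4 was 0.536 (edgeR). In humans ENOSF1 overlaps TYMS on the opposite strand, and no source used here says whether counting took strand into account.

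**Figure D2:**
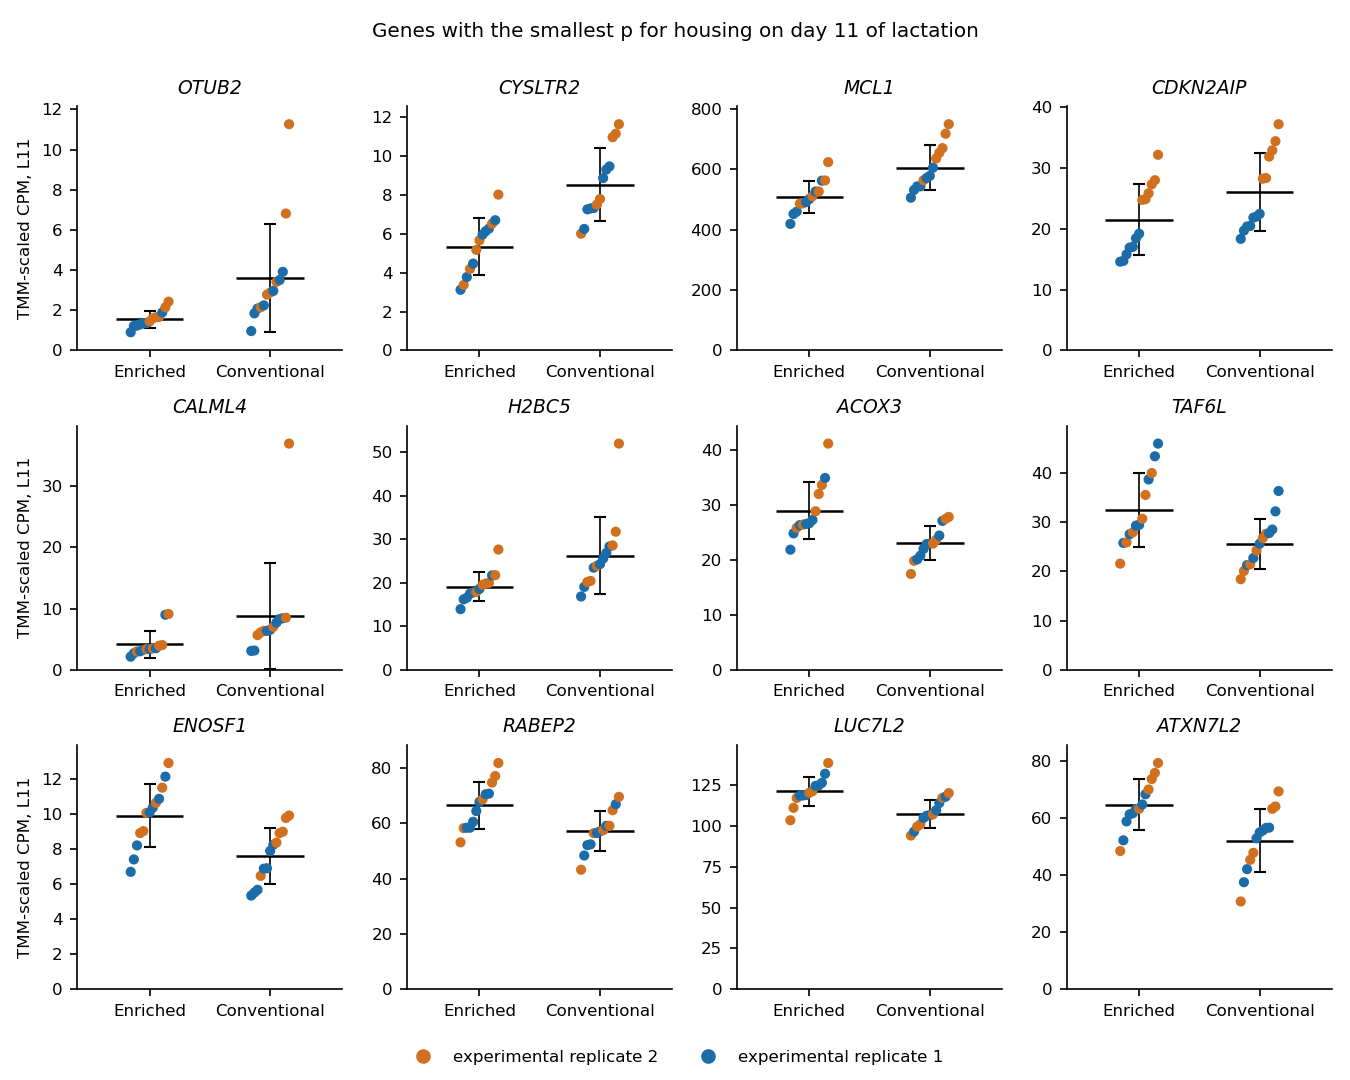
TMM-scaled CPM at L11 (vertical axis, linear from 0) in each of the 13 enriched and 13 conventional sows, for the 6 lower and 6 higher genes of smallest p, coloured by experimental replicate, with the mean (line) and SD (bar). The groups overlap for every gene shown, and the highest OTUB2 value, 11.3 CPM, and the highest CALML4 value, 37.0 CPM, come from a single conventional sow of R2.

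These 12 genes kept their direction in all 504 refits of single genes under the alternatives run, which include each replicate, each parity class and each sow left out. Within HP and LP sows taken apart, OTUB2 had log2 fold changes of -1.50 in HP and -0.85 in LP sows, CYSLTR2 of -1.06 and -0.34, and MCL1 of -0.29 and -0.24. The choice of these genes by small p favours such agreement, since each subset is a share of the sows that chose them. Without the 8 subordinate sows, OTUB2 alone was called (log2 fold change -1.62, edgeR adjusted p = 0.0155).

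Glucocorticoid-related genes did not differ with housing beyond the spread between sows. NR3C1, the glucocorticoid receptor, ran from 60.4 to 130 CPM with a median of 80.2 CPM in enriched sows, against 76.5 to 114 CPM with a median of 85.9 CPM in conventional sows (log2 fold change -0.12, 95% interval -0.28 to 0.04). FKBP5, a chaperone that dampens the receptor and is induced by it, ran from 111 to 384 CPM with a median of 180 CPM, against 138 to 233 CPM with a median of 172 CPM (log2 fold change 0.04, 95% interval -0.24 to 0.33). PER1, a clock gene that glucocorticoids induce, ran from 76.4 to 506 CPM, against 48.6 to 660 CPM (log2 fold change 0.17, 95% interval -0.12 to 0.46). TSC22D3 was not matched to an ID and is not analysed here. Of the 14 listed genes tested, 0 were called (0% in the background). At an unadjusted p under 0.05 (edgeR), 2 were higher and 1 was lower, where 3.55% and 4.07% of all genes were. These were the transcription factor ZBTB16 (log2 fold change 0.30), the ion transport kinase SGK1 (0.34) and the receptor co-chaperone FKBP4 (-0.13), while the decoy interleukin receptor IL1R2 had 0.71 with an SE of 0.38. Without the library of highest C1QA, IL1R2 had 1.14, FKBP5 had 0.13, and the list had 3 genes higher and 0 lower with a median of 0.15 in place of 0.03. Within R1, 3 were higher and 1 lower at an unadjusted p under 0.05 (edgeR), where 6.09% and 9.08% of all genes were. Within R2, 1 was higher and 2 were lower, where 3.25% and 6.36% of all genes were. List medians were 0.11 in R1 and -0.14 in R2.

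The other lists held 0 called genes as well, and their medians are read against -0.01 over all genes and their counts against 4.07% of all genes lower and 3.55% higher at an unadjusted p under 0.05. Of 12 genes encoded by the mitochondrial genome, 3 were lower at an unadjusted p under 0.05, the complex I subunits ND1 (log2 fold change -0.54) and ND6 (-0.34) and the complex III subunit CYTB (-0.31), and the list median was -0.30. That count was 10 without an enriched LP intermediate sow of R2 and between 1 and 5 without any other single sow, with medians from -0.41 to -0.20 throughout. ND1 ran from 615 to 1735 CPM with a median of 788 CPM in enriched sows, and from 727 to 2717 CPM with a median of 1110 CPM in conventional sows. Of 19 genes of cholesterol and fatty acid synthesis, 5 were lower at this level, among them the fatty acid synthesis enzyme ACACA at -0.27, the sterol sensor INSIG1 at -0.42 (-0.26 without the library of highest C1QA) and IDI1 of the isoprenoid pathway at -0.21 (list median -0.08). Of 10 heat shock genes 2 were lower, the co-chaperone DNAJB1 at -0.28 and the constitutive chaperone HSPA8 at -0.22, and of 9 endoplasmic reticulum stress genes 3 were lower, DNAJB9 at -0.40, XBP1 at -0.18 and HERPUD1 at -0.17 (list medians -0.15 and -0.17). Without the library of highest C1QA the heat shock median was -0.09. DNAJB1 ran from 47.3 to 76.7 CPM with a median of 58.9 CPM in enriched sows and from 47.1 to 99.9 CPM with a median of 67.6 CPM in conventional sows.

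Genes of immune cells showed small differences. Of 17 toll-like receptor pathway genes, 2 were lower at an unadjusted p under 0.05, where 4.07% of all genes were, the bacterial lipoprotein receptors TLR1 (log2 fold change -0.49) and TLR6 (-0.23). SLA-DMB, which loads peptides on MHC class II, had -0.32, and BATF3, a transcription factor of cross-presenting dendritic cells, had -0.55 (edgeR adjusted p of 0.536 and 0.436). EOMES, a T-box factor of cytotoxic cells, had 0.42. The toll-like receptor, dendritic cell and cytotoxic lists were mixed in direction. All 6 MHC class II genes tested were below 0, with a median of -0.15, and of -0.18 without the library of highest C1QA. The dendritic cell list had 3 genes above and 6 below 0 with a median of -0.09. The cytotoxic list had 8 genes above and 6 below 0. Medians of the lists of B cells, plasma cells, T cells and cytotoxic cells lay between 0.05 and 0.11. The monocyte list had a median of -0.22 and the complement list one of -0.40, with 12 of 14 and 10 of 10 genes below 0. Without the library of highest C1QA these medians were 0.02 and 0.02.

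The housing difference was not alike in the 2 experimental replicates. Tested as an interaction over all 26 sows, it differed between R2 and R1 for 2 of 12250 genes (0.0163%; edgeR, adjusted p under 0.05), the transcription factor MITF above 0 and the immediate early gene IER2 below 0 (0.00816% in each direction). At an unadjusted p under 0.05 there were 2361 genes (19.3%), and at an adjusted p under 0.1 there were 60 (0.49%). Of those 60 genes, 37 (0.302% of all genes) were below 0 in R2 and above 0 in R1, 23 (0.188%) were above 0 in R2 and below 0 in R1, and 0 had the same sign in both, a pattern that choosing on the interaction favours. Across 12079 genes, the log2 fold changes of the 12 R2 sows and the 14 R1 sows, which share no animal, had a Pearson correlation of -0.2 and a Spearman correlation of -0.216. This is a description across genes, which are not independent replicates. There were 196 genes with an unadjusted p under 0.05 in both replicates, 16.8% of such genes in R2 and 10.6% of those in R1, and 158 of the 196 had opposite signs. The same comparison of HP with LP sows gave a Pearson correlation of 0.083, with 10 of 50 genes of opposite sign. In R2 most conventional sows were subordinate, and the part of rank was not tested beyond a fit that adds it.

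MITF encodes a basic helix-loop-helix factor that drives lysosomal and pigment genes and acts in mast cells, macrophages and osteoclasts (chromosome 13, 51177356 to 51422096). In R2 it ran from 20.6 to 43.8 CPM with a median of 28.1 CPM in the 6 enriched sows, against 9.63 to 26.9 CPM with a median of 17.1 CPM in the 6 conventional sows. In R1 it ran from 5.36 to 19.8 CPM with a median of 10.9 CPM in the 7 enriched sows, against 23.4 to 41.1 CPM with a median of 30.1 CPM in the 7 conventional sows. The groups overlapped in R2 and did not overlap in R1, where every enriched sow was lower. The log2 fold change was 0.74 (SE 0.20) within R2 and -1.43 (SE 0.23) within R1, and the difference between them was 2.22 (SE 0.32, edgeR adjusted p = 0.00397). The call for MITF held in all 26 refits without a sow and in 9 of 9 other settings. MITF and IER2 were chosen by this interaction, which favours groups without overlap.

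IER2, an immediate early transcriptional regulator (chromosome 2, 65909638 to 65912491), separated the groups in the other replicate. In R2 its level was 32.5 to 44.5 CPM with a median of 36.2 CPM in enriched sows, and 52.2 to 68.7 CPM with a median of 61.2 CPM in conventional sows, without overlap. In R1 it was 36.4 to 50.8 CPM with a median of 42.3 CPM in enriched sows, and 34.99 to 45.4 CPM with a median of 40.5 CPM in conventional sows, with wide overlap. The log2 fold change was -0.70 (SE 0.11) in R2 and 0.04 (SE 0.08) in R1, a difference of -0.77 (SE 0.13, edgeR adjusted p = 0.0167). It passed in 24 of 26 refits without a sow and in 7 of 9 other settings. It did not pass with rank added (edgeR adjusted p = 0.0616), with the repeat libraries kept (0.0520), or without 1 enriched or 1 conventional LP sow of R2 (0.0505 and 0.0519).

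**Figure D3:**
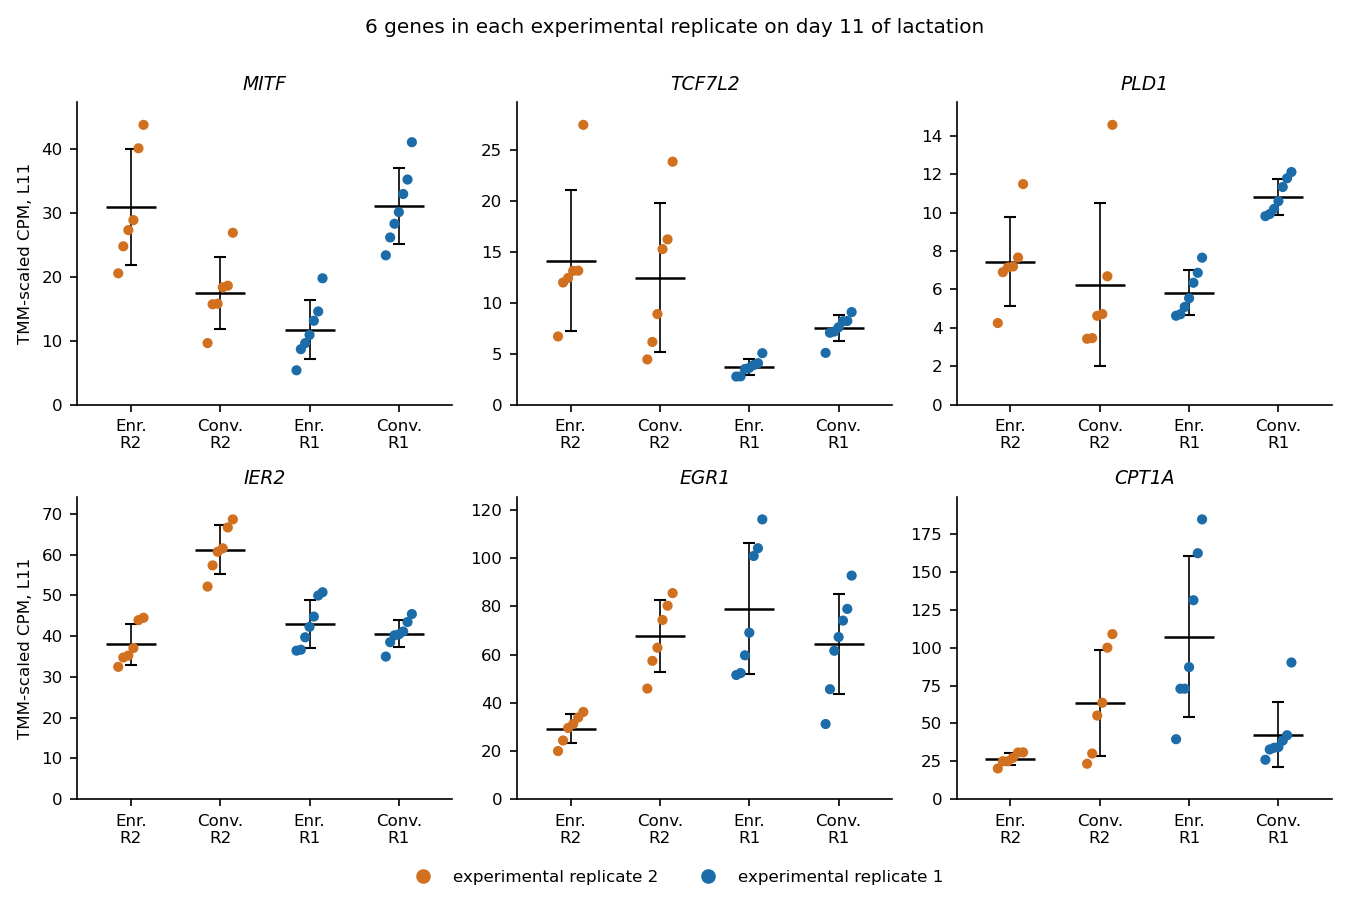
TMM-scaled CPM at L11 (vertical axis, linear from 0) of 6 genes in enriched and conventional sows of R2 and of R1, 1 point per sow, with the mean (line) and SD (bar). MITF, TCF7L2 and PLD1 separate the housing groups in R1, IER2 and EGR1 separate them in R2, and CPT1A has its higher median in conventional sows of R2 and in enriched sows of R1.

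Within R1 alone, 4 of 12240 genes were called (0.0327%), of which 3 were lower (0.0245%) and 1 was higher (0.00817%) in enriched sows. At a threshold of 0.1 there were 7 (0.0572%), 5 of them lower (0.0408%). TCF7L2, a transcription factor of the Wnt pathway (chromosome 14, 123343695 to 123547332), ran from 2.75 to 5.05 CPM with a median of 3.61 CPM in enriched and from 5.08 to 9.09 CPM with a median of 7.60 CPM in conventional sows (log2 fold change -1.07, SE 0.15, edgeR adjusted p = 0.0282). PLD1, a phospholipase that produces phosphatidic acid at membranes (chromosome 13, 110152268 to 110376319), ran from 4.63 to 7.66 CPM and from 9.82 to 12.1 CPM (log2 fold change -0.89, SE 0.13, edgeR adjusted p = 0.0282). The other 2 were MITF and COQ8A, a kinase-like protein of coenzyme Q synthesis, which was higher at 44.3 to 58.8 CPM in enriched against 29.2 to 43.7 CPM in conventional sows (log2 fold change 0.51, edgeR adjusted p = 0.0392). None of these 4 ranges overlapped between the housing groups in R1, which their choice by small p in the same sows favours. The share of all genes without overlap was not counted. In R2, TCF7L2 had a log2 fold change of 0.12, PLD1 of 0.29 and COQ8A of -0.15, and their differences between replicates did not pass (edgeR adjusted p from 0.117 to 0.135). The R1 calls were sensitive to single sows: the count was 194 without an enriched HP dominant sow, and 0 in 10 of the 14 refits that each left out a sow. Within R2, 0 of 12307 genes were called (0%), with 1183 (9.61%) at an unadjusted p under 0.05, 400 higher (3.25%) and 783 lower (6.36%), and DESeq2 called 22.

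Immediate early genes lay below 0 in R2 more than in R1. In R2, 7 of 15 were lower in enriched sows at an unadjusted p under 0.05 and 0 were higher, where 6.36% of all genes were lower, and the list median was -0.59. In R1 the median was 0.04, with 1 lower and 2 higher. The difference between replicates was below 0 at an unadjusted p under 0.05 for 9 genes, where 10.1% of all genes were, and above 0 for 1, and only IER2 was called. FOS ran from 143 to 261 CPM with a median of 187 CPM in enriched and from 260 to 789 CPM with a median of 351 CPM in conventional sows of R2. In R1 it ran from 244 to 377 CPM and from 220 to 405 CPM. FOSB had a log2 fold change of -1.69 in R2 and -0.13 in R1, and JUNB had -0.55 and 0.07. EGR1, chosen after its values were seen, ran from 19.9 to 36.2 CPM in enriched and from 45.9 to 85.5 CPM in conventional sows of R2, without overlap (log2 fold change -1.19, edgeR adjusted p = 0.155), and overlapped widely in R1 (0.29). PPP1R15A, a stress-induced phosphatase subunit chosen in the same way, had a median of 162 CPM in enriched and 298 CPM in conventional sows of R2, and of 79.4 CPM and 66.0 CPM in R1 (difference of log2 fold changes -1.17, edgeR adjusted p = 0.0559). Without the library of highest C1QA the list still had 7 genes lower in R2 and a median of -0.58.

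Ribosomal protein genes had opposite signs in the replicates. All 39 tested were below 0 in R2, 29 of them at an unadjusted p under 0.05, where 6.36% of all genes were lower, and all 39 were above 0 in R1, 1 of them at that level. List medians were -0.32 in R2, 0.13 in R1 and -0.08 over both. Summed over the list, R2 sows held 68190 to 83044 CPM in enriched and 74477 to 127110 CPM in conventional housing, and R1 sows held 50127 to 69109 CPM and 49732 to 61234 CPM. RPL6, of the large subunit, ran from 3140 to 3715 CPM in enriched and from 3377 to 5592 CPM in conventional sows of R2. In R1 it ran from 2410 to 3534 CPM and from 2422 to 3227 CPM. The acidic stalk protein RPLP1 had a log2 fold change of -0.56 in R2 and 0.14 in R1, and RPS23, of the small subunit, had -0.32 and 0.03. The difference between replicates was below 0 at an unadjusted p under 0.05 for 35 of 39 genes, where 10.1% of all genes were, and 0 were called. The R2 count rested on single sows: it was 12 without an enriched LP subordinate sow, 18 without a conventional LP subordinate sow, 19 without an enriched HP intermediate sow, 19 without the library of highest C1QA, and 20 to 33 without each of the others. The R2 median ran from -0.37 to -0.23 in these refits, and the count of genes that differed between replicates from 29 to 39. These transcripts vary together across libraries, so the genes of the list are not separate observations, and reads of their many processed copies may have been shared.

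Nuclear genes of oxidative phosphorylation had a median of -0.23 in R2 and 0.03 in R1, with 12 of 51 lower in R2 at an unadjusted p under 0.05, where 6.36% of all genes were. NDUFB9, of complex I, had -0.69 in R2 and -0.01 in R1. Without the library of highest C1QA, 2 genes were lower in R2 and the median was -0.09, and without any other single sow of R2 there were 4 to 19. Genes of the mitochondrial genome did not follow this split, with medians of -0.21 in R2 and -0.41 in R1 and 6 of 12 genes lower at an unadjusted p under 0.05 in R1, where 9.08% of all genes were. The R1 count was 2 without an enriched LP dominant sow, 3 without an enriched LP intermediate sow and 5 to 8 without each of the others, and the R2 median ran from -0.50 to 0.07 when single sows were left out. Of the 19 lipid synthesis genes, 0 were lower in R2 and 8 in R1 at that level, with ACACA at 0.06 in R2 and -0.54 in R1. CPT1A, which admits long-chain fatty acids to mitochondria and was chosen after its values were seen, had a median of 26.1 CPM in enriched and 59.4 CPM in conventional sows of R2, and of 87.2 CPM and 34.4 CPM in R1. Its log2 fold change was -1.25 in R2 and 1.40 in R1, and the difference of -2.64 was not called (SE 0.50, edgeR adjusted p = 0.0559). Granulocyte markers had medians of -0.44 in R2 and 0.81 in R1 over 5 genes. The R2 median was 0.23 without the library of highest C1QA, and -1.37 without an enriched LP intermediate sow. It was -0.62 to -0.37 without each of the others. Platelet markers had medians of -0.47 in R2 and 0.27 in R1 over 8 genes, with -0.21 in R2 without the library of highest C1QA and 0.03 in R1 without an enriched LP intermediate sow. Erythroid markers had 0.90 in R2 and -1.19 in R1 over 6 genes, and both signs rested on the libraries of highest erythroid sum: without these the medians were -0.66 in R2 and 0.28 in R1. Collagen and stromal genes had -0.62 over 9 genes in R2 and 1.49 over 8 genes in R1, with ranges of -1.09 to -0.05 and 0.44 to 2.22 when single sows were left out. Summed over all 8 IDs of the list, granulocyte markers ran from 275 to 530 CPM in enriched and from 272 to 2752 CPM in conventional sows of R2, and from 283 to 568 CPM and 265 to 477 CPM in R1. Their part in the differences between replicates was not tested.

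**Figure D4:**
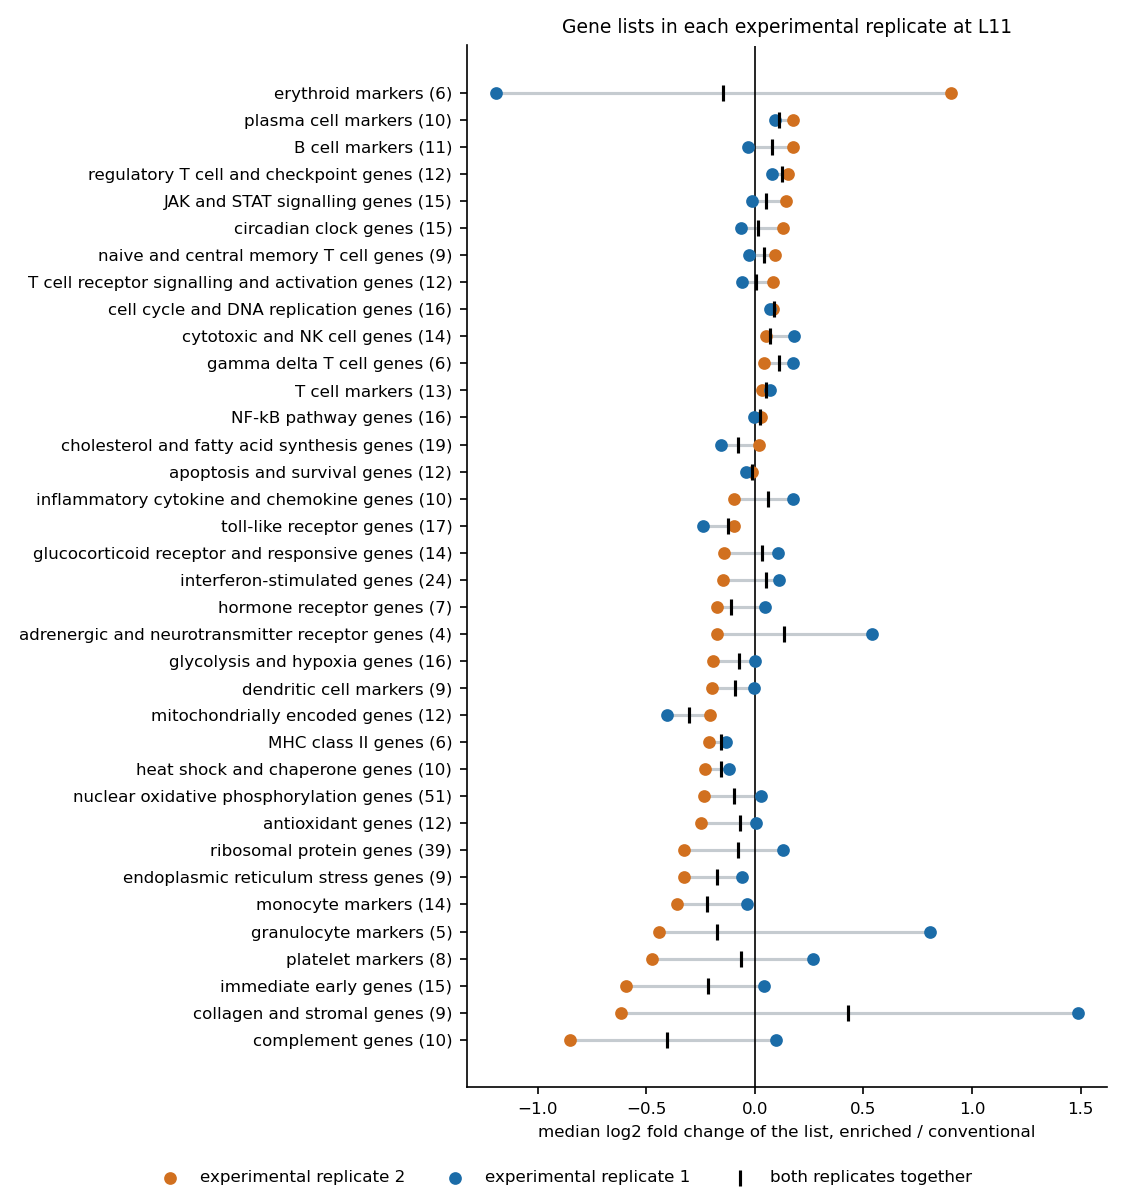
Median log2 fold change of enriched over conventional sows (horizontal axis) for each of the 36 gene lists, with the number of genes tested in brackets, within R2 and within R1 (coloured points) and over both replicates (black bars). Ribosomal protein genes lie at -0.32 in R2 and 0.13 in R1 and immediate early genes at -0.59 and 0.04, while the B, T, plasma and cytotoxic cell lists lie between -0.03 and 0.18 in both.

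Parity did not alter the housing difference detectably. The interaction of housing with parity called 0 of 12250 genes (0%), with 464 (3.79%) at an unadjusted p under 0.05 (edgeR). Among 7 enriched and 5 conventional HP sows 0 of 12379 genes were called, and 754 (6.09%) had an unadjusted p under 0.05, 378 higher (3.05%) and 376 lower (3.04%). The 6 enriched and 8 conventional LP sows gave 0 of 12400, and 397 (3.2%), 172 higher (1.39%) and 225 lower (1.81%). For the 12 genes of smallest p the difference between HP and LP ran from -0.72 (CYSLTR2) to 0.20 (ACOX3), each with an edgeR adjusted p of 0.986.

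The same 26 sows were also sampled on day 98 of gestation (G98), and the housing difference was fitted there in the same way. At G98 1 of 12225 genes was called (0.00818%; edgeR), AHRR, which represses the aryl hydrocarbon receptor (chromosome 16, 79730920 to 79810183). It ran from 2.82 to 6.32 CPM with a median of 4.42 CPM in enriched sows, and from 1.68 to 3.74 CPM with a median of 2.18 CPM in conventional sows at G98 (log2 fold change 0.79, SE 0.13, edgeR adjusted p = 0.0418). At L11 the same sows ran from 1.90 to 10.2 CPM and from 1.64 to 7.30 CPM, with a log2 fold change of -0.27. The call was made in 8 of the 26 refits without a sow. At G98 the 10 most abundant genes took 18.1% to 28.6% of counts in some enriched sows of R1. They took at most 11.7% in conventional sows. Erythroid markers had a median log2 fold change of 1.45 at G98, and 5 of 6 were higher at an unadjusted p under 0.05 (edgeR). At that level 4.21% of all genes were higher. In the stage interaction their median was -1.04. The part of these libraries in the G98 and stage results was not tested. MCL1 had a log2 fold change of -0.26 at L11 and 0.14 at G98, CDKN2AIP of -0.28 and 0.12, OTUB2 of -1.16 and -0.07, and CYSLTR2 of -0.67 and -0.17, while ACOX3 had 0.36 and 0.13 and TAF6L 0.39 and 0.28. The choice of these genes by small p at L11 favours smaller values at G98, so the contrast does not show when the differences arose.

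Tested within sows, the change of the housing difference between L11 and G98 called 0 of 12349 genes (0%), with 1261 (10.2%) at an unadjusted p under 0.05, 697 of them below 0 (edgeR). At an adjusted p under 0.1 there were 8 genes (0.0648%), all below 0. RGCC, a cell cycle regulator that responds to complement, led them, with DNAJB1, MCL1, HSPA8, the mitochondrial membrane protein TMEM11 and an ID with no symbol at an edgeR adjusted p of 0.067. The nucleolar protein NIFK and IDI1 followed at 0.0932 (edgeR). The 13 enriched sows held 419 to 623 CPM of MCL1 at L11 and 466 to 817 CPM at G98, and 2 of the 13 were higher at L11. The conventional sows held 506 to 749 CPM at L11 and 450 to 641 CPM at G98, and 10 of the 13 were higher at L11. HSPA8 was higher at L11 in 1 of 13 enriched and 8 of 13 conventional sows (difference of log2 fold changes -0.36, SE 0.07), and DNAJB1 in 3 of 13 and 11 of 13 (-0.48, SE 0.09). These counts of sows compare levels that were scaled separately at each stage, so they depend on that scaling. The interaction itself was fitted with the libraries of both stages scaled together. RGCC at L11 was 91.2 to 181 CPM in enriched and 124 to 258 CPM in conventional sows of R2, and 44.7 to 66.2 CPM and 44.9 to 64.9 CPM in R1. RGCC, TMEM11, HSPA8, DNAJB1 and NIFK were named after their values were seen in this interaction, except where a list gave them. MCL1 was chosen by its L11 values, which also enter this interaction.

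**Figure D5:**
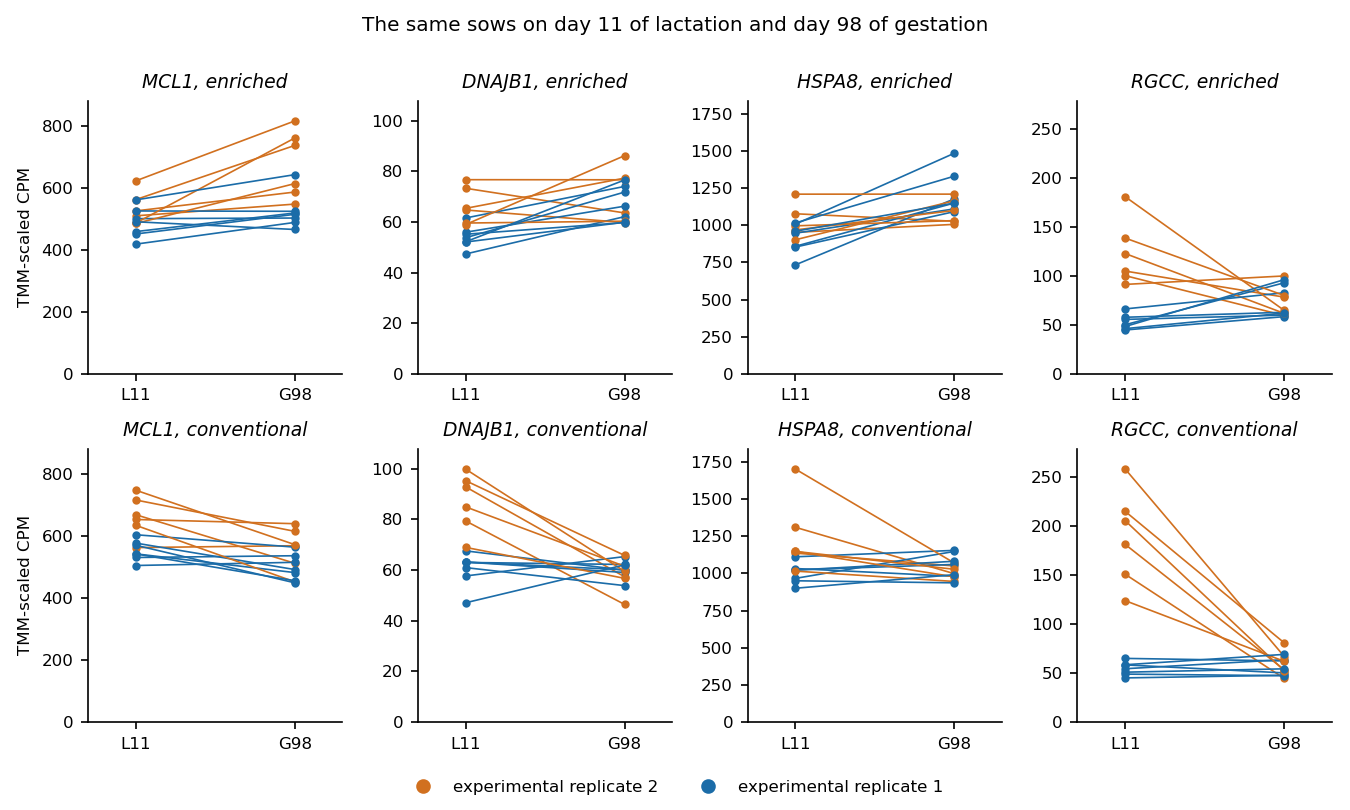
TMM-scaled CPM (vertical axis, linear from 0) of MCL1, DNAJB1, HSPA8 and RGCC at L11 and G98 in enriched (top) and conventional sows (bottom), with a line for each of the 13 sows of a group, coloured by experimental replicate. MCL1 is higher at L11 in 2 of 13 enriched and 10 of 13 conventional sows, and the L11 values of RGCC separate by replicate in both groups. Levels were scaled separately at each stage.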

How the data were processed

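The labels' protocols state a NucleoSpin kit for RNA and QIAseq Stranded mRNA libraries. The submitters' processing notes name Sscrofa11.1 as build, and R 4.1.2 and DESeq2 as tools. No source used here gives the aligner, quantifier or annotation. The authors deposited, per the file headers, an estimated count of reads for each of 24358 Ensembl gene IDs, not normalised, beside TPM values. Of the estimated counts 4.61% were not whole, and all were rounded, and the deposited TPM entered no test. Symbols matched 14692 IDs (60.3%), and gene spans come from RefSeq by symbol, with exons and untranslated regions not distinguished.

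The quasi-likelihood test of edgeR 4.0.16 in R 4.3.3 was used after TMM scaling and filtering with filterByExpr on housing, with parity and experimental replicate as covariates and Benjamini-Hochberg adjustment over all genes tested (threshold 0.05, 2-sided). The replicate number marks a shared experimental run per the series' design text, so it stood in the fit as a block. Interactions of housing with replicate and parity were added terms, and that with stage was fitted with a term for each sow. Alternatives were DESeq2 1.42.0, limma voom 3.58.1, other filters, covariates and subsets, and each sow left out in turn. Levels are TMM-scaled CPM, scaled separately at L11 and at G98. All 11 pairs of libraries that share housing, parity, rank and replicate differed beyond sampling noise, at 29.2 to 263 for chi-square per degree of freedom, so none was counted as a repeat. P-values measure the spread between sows, and those of the stage interaction measure the spread between sows in the change between stages. The fits with the repeat libraries kept have no term for sow, so they treat libraries of the same sow as separate animals.

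Genes were named by rule: all called, the 6 higher and 6 lower of smallest p that had a symbol and averaged 1 or more in log2 CPM, up to 4 genes of smallest p in each of 36 lists, and NR3C1, FKBP5, TSC22D3 and PER1. The comparison, lists and tests were chosen with earlier results of these data known. Lists are described by counts and medians, without a test. The fits were tested on simulated data. Some genes that this rule names are not reported here.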

Additional observations from a re-analysis of the deposited data

Results flagged for a closer look

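The housing difference of MITF was not the same in the 2 experimental replicates, by the test of that difference itself. It was 2.22 higher on the log2 scale in R2 than in R1 (edgeR adjusted p = 0.00397), with enriched sows above conventional sows in R2 by their medians and every enriched sow below every conventional sow in R1. Its log2 fold change over both replicates was -0.43.

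IER2 differed between replicates in the opposite direction, by -0.77 on the log2 scale (edgeR adjusted p = 0.0167). Every enriched sow was below every conventional sow in R2, and the groups overlapped in R1. The replicates also differ in overall expression, and what else set them apart was not tested.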

How the results depend on the processing

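The count of 0 genes with housing at L11 was unchanged by DESeq2 size factors, limma voom, both other filters, a threshold of 0.1, no parity term, rank as a covariate, either choice of repeat library, HP, LP or R2 sows alone, the library of highest C1QA left out and each of the 26 sows left out. It was 5 with DESeq2, 4 in R1 alone and 1 without subordinate sows. Without the replicate block it was 0, with 640 genes at an unadjusted p under 0.05 in place of 933, and at G98 it was 1. The block was left out of these 2 fits alone. The 2 genes of the replicate interaction became 60 at a threshold of 0.1, 319 with DESeq2, 7 with limma voom, 1 with rank added, 30 with the repeat libraries kept and 17 without the library of highest C1QA. Leaving out each sow gave 1 to 250, with 250 without an enriched HP dominant sow of R1, 105 without a conventional LP subordinate sow of R2, 44 without an enriched HP dominant sow of R2, 8 without a conventional HP subordinate sow of R2 and 4 without an enriched LP intermediate sow of R1. The R1 count of 4 became 7 at a threshold of 0.1, 204 with DESeq2 and 0 to 194 without a sow, with 194 for the same R1 sow. The R2 count of 0 became 22 with DESeq2. The G98 count of 1 was 0 with no filter and 0 to 1 without a sow. The stage interaction had 8 genes at a threshold of 0.1, 43 with DESeq2 and 1 without the sow of highest C1QA. The cause was not tested. Outside the comparison over all 26 sows at L11, the fits with DESeq2, limma voom, rank added, repeat libraries kept, the highest C1QA left out or a sow left out were chosen after seeing the data. Leaving out each sow in turn was not run for the parity and stage interactions, and the sow of highest C1QA alone was left out of the stage interaction. Of single gene values under the alternatives, 6469 kept direction and side of the threshold, 66 lost a call, 6 gained one and 118 that were not called changed sign. List medians moved by less than the SD of the list's mean level over the 26 libraries in 570 cases and by more in 6. That SD includes the difference between replicates, so a median can change sign and still count as unmoved. At these depths, 1 CPM before TMM scaling rests on 18.1 to 25.3 counts, and depth limits the genes below that.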

Other observations

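LRRN2, a leucine-rich repeat membrane protein known from neurons, lay below the level at which genes were named and was picked after its values were seen. It ran from 0.351 to 4.42 CPM with a median of 2.47 CPM in enriched sows at L11, against 0.252 to 2.15 CPM with a median of 0.919 CPM in conventional sows. At G98 the medians were 1.3 CPM and 0.861 CPM. Its log2 fold change was 1.34 at L11 (SE 0.34, edgeR adjusted p = 0.436) and 1.41 at G98 (SE 0.33, edgeR adjusted p = 0.411), and it was 1.28 in R2 and 1.43 in R1. It passed at neither stage, and both stages come from the same sows.

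Of the neurotransmitter and hormone receptor genes listed, the opioid receptor OPRM1 and the oestrogen receptor ESR2 had a rounded count of 0 in every L11 library compared here.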
